A study of Mus musculus with 6 samples.

Results

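Integrins and tetraspanins, the adhesion receptors of the cell surface and the membrane proteins that gather them into clusters, were compared between WT macrophages and macrophages lacking the transcription factor c-Maf. Members were taken by gene name: probes of the Agilent mouse array named for an integrin alpha subunit, an integrin beta subunit from Itgb1 to Itgb8, a numbered tetraspanin, or one of Cd9, Cd37, Cd53, Cd63, Cd81, Cd82 and Cd151. This took 78 probes of 53 genes among the 34650 gene names of the array, with 26 integrin and 27 tetraspanin genes. A gene was read through its probe of highest signal, and 42 members (20 integrins and 22 tetraspanins) were well above background on at least 2 of 5 arrays, as were 20197 gene names in all.

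The samples were 3 WT and 3 c-Maf KO cultures of cells that the labels call polarized M2-like bone marrow macrophages. They came from chimeric mice carrying fetal liver cells of either genotype, and the labels list the tissue as liver. All 6 cultures were grown in serum-containing medium with 10 ng/ml M-CSF, the growth factor of macrophages, which was added daily from day 4. Total RNA was labelled with Cy3 and hybridised to 1-colour arrays. The labels do not say which cells of the recipient mice remained, which part of Maf was deleted, or whether replicates came from separate mice, so the p-values cover the spread among these 6 cultures, part of which may be technical. In bulk RNA, fewer cells of a type and less RNA per cell cannot be told apart.

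An integrin is a pair of an alpha and a beta subunit that spans the membrane, binds matrix proteins or receptors on other cells outside, and ties into actin through talin and kindlin inside. Leukocytes use the pairs built on Itgb2 to adhere and to take up opsonised particles, and pairs built on Itgb1 or Itgav to bind fibronectin, laminins, collagens and vitronectin. Tetraspanins cross the membrane several times and bind integrins, proteases and immune receptors laterally, which sets where these partners sit and how long they stay at the surface. c-Maf is a basic leucine zipper protein that binds DNA at Maf recognition elements and is expressed in many tissue macrophages.

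Values are log2 ratios to the probe's median over the 6 samples, and a difference is the mean of c-Maf KO minus the mean of WT on that scale. Values in a genotype are given for its replicates 1, 2 and 3, in that order. Ratios place the samples of 1 gene in order and say nothing of the level of one gene against another. Maf itself measured 1.92, 1.98 and 2.03 in WT and -2.22, -2.36 and -1.92 in c-Maf KO. This is a fall of 4.14 on the log2 scale (SE 0.121, adjusted p = 0.000556, limma with Benjamini-Hochberg adjustment over 20197 genes, as for every adjusted p here). From 48.9% to 50.5% of probes were well above background on the 5 arrays with scanner files, and none was saturated. Precision here is limited by how few arrays there are. c-Maf KO replicate 1 enters only through the deposited ratios. Of the 5 arrays with scanner files, all on 1 slide, row 1 held WT alone and row 2 held c-Maf KO alone. Among these 5, slide row and genotype cannot be told apart. The slide position of c-Maf KO replicate 1 is not known. Of 9 macrophage markers, 8 were measured on these arrays, and 7 of their differences were negative, with a median of -0.15 and a range from -0.44 to 0.33. The 2 brightest, Csf1r at -0.088 and Cd68 at -0.054, overlapped between genotypes. Of the 8, 4 (50%) were lower without overlap, Fcgr1 at -0.44 and Emr1 at -0.22 among them, and 1 (12.5%) was higher. The shares over all genes were 8.86% lower and 11.1% higher. No macrophage marker passed the test. Of 6 hepatocyte markers, 2 were measured, and Alb, Apoa1, Ttr and Ahsg were below the detection rule. Of 19 fibroblast and stromal markers 18 were measured, with a positive difference in each (median 0.92, Sparc at 0.87 and Tagln at 0.71). In 15 (83.3%) the genotypes did not overlap, where 11.1% of all genes were higher without overlap.

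Most integrin and tetraspanin transcripts lay close together in the 2 genotypes, and a small group stood apart. Among the 42 measured members the median difference was 0.016, against 0.0018 over all genes, and 22 differences were positive and 20 negative. For 27 members the difference was within 0.2 either way, and for 23 the 95% interval lay within 0.4 of 0. No member passed adjusted p under 0.05 by limma, where 7 of all genes did (0.0347%). At an unadjusted p under 0.05, 11 members stood out (9 higher and 2 lower in c-Maf KO), which is 26.2% against 12.6% of all genes. The samples of the 2 genotypes did not overlap for 10 members, or 23.8%, against 20% of all genes. Of these, 8 (19.0%) were higher in c-Maf KO, against 11.1% of all genes, and 2 (4.76%) were lower, against 8.86%. Itga7 and Tspan12, 2 of the 8, were kept through the c-Maf KO arrays alone. A difference beyond 0.5 was measured for 9 members, or 21.4%, against 5.92% of all genes. Itga7 and Tspan12 are also among these 9 and among the 11 members above. A gene kept only through its brighter group had to differ, so these shares lean in part on the detection rule.

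**Figure D1:**
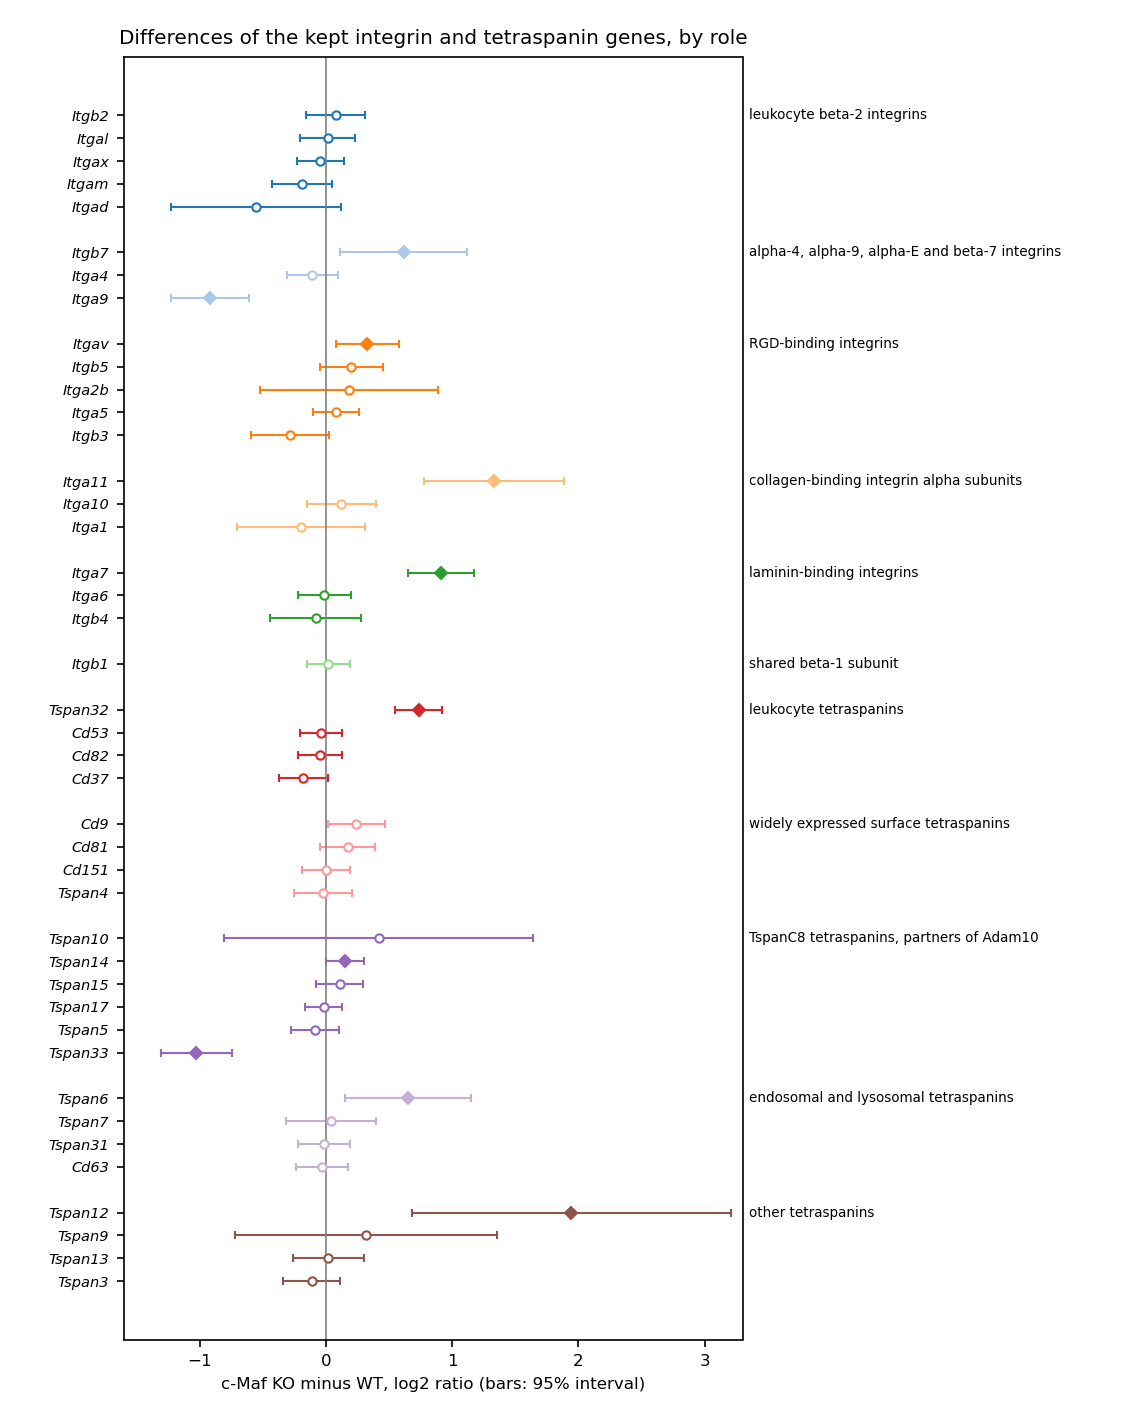
Difference of each of the 42 measured integrin and tetraspanin genes, c-Maf KO minus WT in log2 ratio, on the horizontal axis, with genes grouped and coloured by role on the vertical axis. Points are differences of means of 3 and 3 samples, bars are 95% intervals from limma, and filled diamonds mark the 10 genes whose samples do not overlap; Tspan33 and Itga9 lie farthest to the left and Tspan12 and Itga11 farthest to the right.

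A few probes carry these differences, and the first 30 of their 60 bases are shown since each value below is the signal at 1 such probe. Tspan32 is shown with both of its measured probes. Letters are in lower case throughout.
Tspan33 probe: tttctacagtgtaagaatcgggaatctggc
Itga9 probe: taccttcagctttgtgtagccaaaaaagcc
Tspan32 probe, brighter: ggattacccacactccttataagtaactcc
Tspan32 probe, dimmer: cctaccatggcttggatagaaaaggcagat
Itga11 probe: gtttcatctgaacaatgtcatctgttcccc
In mm9, the build of the array files, they match chromosome 6 from 29668498 to 29668557 (Tspan33), chromosome 9 from 118807900 to 118807959 (Itga9) and chromosome 7 from 150205329 to 150205388 and from 150203530 to 150204606 (Tspan32). The Itga11 probe matches chromosome 9 from 62631667 to 62631726. The dimmer Tspan32 probe covers more genome than its own length. Which exon or UTR each probe lies in was not analysed here, for want of an annotation of that build.

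Tspan33 belongs to the TspanC8 tetraspanins, which bind the sheddase Adam10, bring it out of the endoplasmic reticulum and direct which substrates it cuts. It was the member with the most negative difference. Its log2 ratios were 0.40, 0.37 and 0.60 in WT and -0.61, -0.37 and -0.72 in c-Maf KO. Every c-Maf KO sample lay below every WT sample, and the 3 samples of each genotype lay close together. WT was 2.03-fold higher on average (difference -1.02, SE 0.115, 95% interval -1.30 to -0.74), with an adjusted p of 0.0891 by limma. With limma's variance trend and robust estimation the adjusted p was 0.00284, where 141 of all genes were called (0.698%). With genes well above background on all 5 arrays alone it was 0.046, where 22 of 18487 genes were called (0.119%).

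The other 5 TspanC8 tetraspanins differed less or not at all beyond their spread. Tspan14 measured -0.10, -0.024 and -0.086 in WT and 0.15, 0.065 and 0.024 in c-Maf KO, so the genotypes did not overlap, at a difference of 0.15 (95% interval 0.00083 to 0.30, adjusted p = 0.395 by limma). Tspan15 (0.11), Tspan17 (-0.018) and Tspan5 (-0.086) had 95% intervals that included 0. Tspan10 had a difference of 0.42 with an interval from -0.80 to 1.64, and was above background on 1 WT and 1 c-Maf KO array. Adam10 itself, the protease these proteins carry, measured 0.097 (95% interval -0.057 to 0.25). Of 2 receptors that Adam10 cuts, Notch1 had a difference of -0.22 and Notch2 one of -0.16.

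Itga9, the alpha subunit that pairs with Itgb1 to bind tenascin C, osteopontin and Vcam1, was the other member measured lower in every c-Maf KO sample. It stood at 0.45, 0.28 and 0.51 in WT and at -0.28, -0.70 and -0.55 in c-Maf KO. The nearest samples of the 2 genotypes were WT replicate 2 and c-Maf KO replicate 1. The difference was -0.92 (SE 0.127, 95% interval -1.23 to -0.61), or 1.89-fold higher in WT, with an adjusted p of 0.110 by limma and 0.0331 with trend and robust estimation.

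Itga4, the closest relative of Itga9 and a receptor for fibronectin and Vcam1, measured -0.063, 0.20 and 0.14 in WT and -0.048, 0.024 and -0.024 in c-Maf KO. These ranges overlapped, and the difference was -0.11 (95% interval -0.31 to 0.096). A dimmer Itga4 probe gave -0.30, also with overlap, and c-Maf KO replicate 1 was lowest there at -0.67. Itgb7 pairs with Itga4 to bind the gut addressin Madcam1 and with Itgae to bind E-cadherin. It measured -0.42, -0.018 and -0.31 in WT and 0.33, 0.76 and 0.018 in c-Maf KO, at a difference of 0.62 (SE 0.206, adjusted p = 0.314 by limma). c-Maf KO replicate 2 was highest and c-Maf KO replicate 3 lay near WT replicate 2. Without c-Maf KO replicate 2 the difference was 0.42. That sample also had the highest mean of the 6 measured dendritic cell markers of 8. It was 0.42 there against -0.059 to 0.056 in the other 5 samples. Of these markers, Ccr7 stood at 1.46 in that sample and the brighter Siglech at -0.098. The means of the endothelial, hepatocyte, osteoclast, monocyte and platelet markers were also highest in that sample. Those of the macrophage, stromal and neutrophil markers were not. The part of dendritic cells in the Itgb7 value was not tested. Itgae was not well above background on any array.

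Tspan32, also known as Phemx or Tssc6, is a tetraspanin of blood cells that restrains T cell proliferation and steadies platelet integrin signalling. Its brighter probe measured -0.47, -0.29 and -0.50 in WT and 0.30, 0.35 and 0.29 in c-Maf KO. The 3 c-Maf KO samples lay within a narrow band above all WT samples. c-Maf KO was 1.66-fold higher (difference 0.74, SE 0.0754, 95% interval 0.55 to 0.92), with an adjusted p of 0.0771 by limma. It was 0.00311 with trend and robust estimation and 0.0406 among genes above background on all 5 arrays. The dimmer probe measured -0.54, -0.33 and -0.64 in WT and 0.42, 0.54 and 0.33 in c-Maf KO, so both probes separated the genotypes in the same direction.

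The other leukocyte tetraspanins showed no such separation. Cd37, which curbs antigen presentation, measured 0.072, 0.12 and -0.00014 in WT and 0.00014, -0.11 and -0.23 in c-Maf KO. It had a difference of -0.18 (95% interval -0.37 to 0.015, adjusted p = 0.428 by limma). Its second probe gave -0.20. Cd53, a pan-leukocyte tetraspanin, had a difference of -0.040 (95% interval -0.21 to 0.13). Cd82, a partner of integrins and of pattern receptors in phagosomes, had one of -0.046 through its brightest probe and of 0.15 and 0.051 through the other two, so its sign was not settled.

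**Figure D2:**
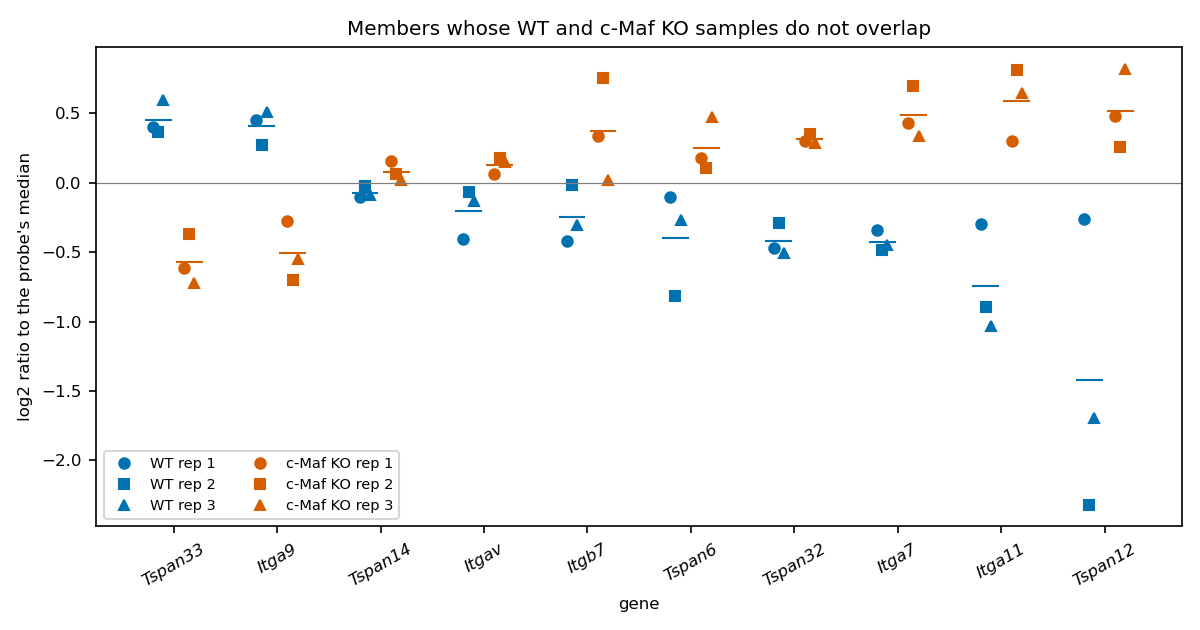
Log2 ratio to the probe's median on the vertical axis for the 10 members whose WT (blue) and c-Maf KO (orange) samples do not overlap, ordered by difference. Each marker is 1 sample, with its shape giving the replicate number, and each short line is the mean of 3 samples; WT replicate 1 lies well above WT replicates 2 and 3 in Itga11 and Tspan12 (-0.26 against -2.32 and -1.70 in Tspan12).

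Itga11 is a collagen receptor of fibroblasts and other mesenchymal cells, paired with Itgb1. It had the most positive difference of the integrins. The log2 ratios were -0.30, -0.90 and -1.03 in WT and 0.30, 0.82 and 0.65 in c-Maf KO. WT replicate 1 lay closest to the c-Maf KO samples, and no samples overlapped. c-Maf KO was 2.51-fold higher (difference 1.33, SE 0.227, 95% interval 0.77 to 1.88), with an adjusted p of 0.146 by limma. Without WT replicate 1 the difference was 1.55 and the adjusted p 0.0490, in a fit that called 100 of all genes (0.495%).

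The remaining collagen-binding alpha subunits overlapped between genotypes. Itga1, the receptor for collagen of basement membranes, had a difference of -0.20 through its brightest probe and 0.20 through a dimmer one, with c-Maf KO replicates at -0.45, -0.35 and 0.32. Itga10, a collagen receptor of cartilage, had a difference of 0.12 (95% interval -0.15 to 0.40). Itga2 was not well above background on any array.

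Itga7, the laminin receptor of muscle cells, was well above background on both c-Maf KO arrays with scanner files and on no WT array. Its ratios were -0.34, -0.48 and -0.45 in WT and 0.43, 0.70 and 0.34 in c-Maf KO, and the samples of each genotype lay close together. Over the 6 samples c-Maf KO was 1.88-fold higher (fitted difference 0.91, SE 0.107, adjusted p = 0.100 by limma), set against a WT signal that was not well above background. A gene kept only through its brighter group had to differ, so its place among the members without overlap is a description. Itga6, which binds laminin with Itgb1 or Itgb4, had a difference of -0.013 (95% interval -0.22 to 0.20), and Itgb4, the hemidesmosome subunit, had one of -0.079 (95% interval -0.44 to 0.28).

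Tspan12, which helps Frizzled receptors respond to norrin and also binds Adam10, had the largest fitted difference of all measured members and the widest spread of WT samples. It measured -0.26, -2.32 and -1.70 in WT and 0.48, 0.26 and 0.82 in c-Maf KO. The WT values were not well above background on any array. c-Maf KO was at least 1.55-fold higher (fitted difference 1.95, SE 0.518, adjusted p = 0.251 by limma). As it was kept through its brighter group alone, it had to differ, and no call is read from it. Without WT replicate 1 the fitted difference was 2.53. Tspan6, a tetraspanin of endosomes, measured -0.11, -0.82 and -0.27 in WT and 0.18, 0.11 and 0.47 in c-Maf KO. Its difference was 0.65 (SE 0.205, 95% interval 0.15 to 1.15, adjusted p = 0.292 by limma), and WT replicate 1 was again the WT sample nearest to c-Maf KO.

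The higher members can be set beside the stromal markers sample by sample. The mean log2 ratio of the 18 stromal markers was -0.090, -1.0 and -0.76 in WT and 0.17, 0.16 and 0.55 in c-Maf KO. Their summed level, in multiples of the array's 75th percentile of signal, was 195 in WT replicate 1, 113 and 128 in WT replicates 2 and 3, and 255 and 285 in c-Maf KO replicates 2 and 3. For Tspan12, Tspan6 and Itga7, the WT samples stood in the same order as this mean, with replicate 1 highest and replicate 2 lowest, over a narrow range in Itga7 (-0.48 to -0.34). Itga11 also had WT replicate 1 highest. Tspan32, Itgav, Itgb7 and Tspan14 were instead highest in WT replicate 2, and Itgav, Itgb7 and Tspan14 were lowest in WT replicate 1. Within c-Maf KO, replicate 3 was highest in this mean, in Tspan12 and in Tspan6. Itga7 was lowest in that replicate, at 0.34 against 0.43 and 0.70, and Itga11 was highest in c-Maf KO replicate 2, at 0.82. The part of stromal cells in the values of Itga11, Tspan12, Tspan6 and Itga7 was not tested. Of the 19 stromal markers, the proteoglycan Lum was the one not kept.

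**Figure D3:**
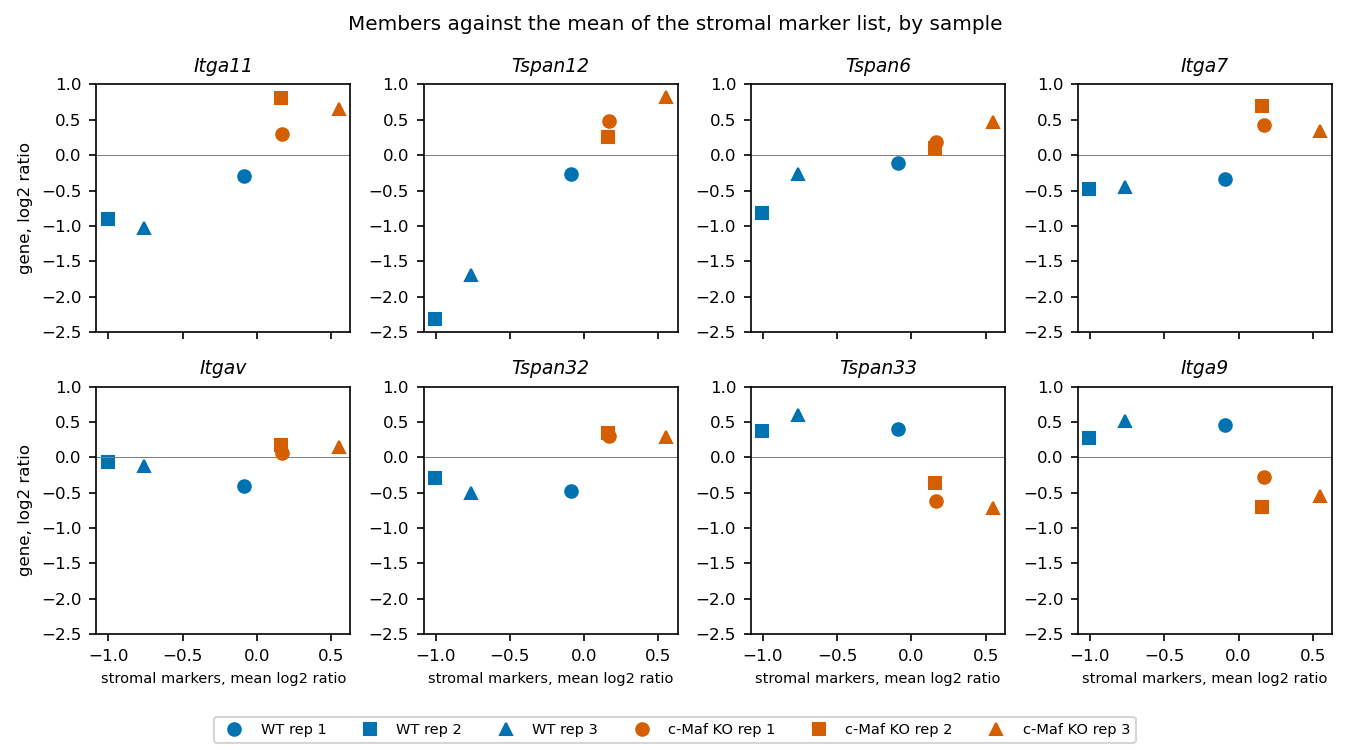
Log2 ratio of 8 members on the vertical axes against the mean log2 ratio of the 18 measured stromal markers on the horizontal axes, 1 point per sample (blue WT, orange c-Maf KO, shape for replicate number). WT replicate 1, at a stromal mean of -0.090, lies between the other WT samples and the c-Maf KO samples in Itga11, Tspan12 and Tspan6, and within the range of the other WT samples in Tspan33 and Itga9.

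Among integrins that bind the RGD sequence of matrix proteins, Itgav stood apart. Itgav pairs with several beta subunits to bind vitronectin and fibronectin and to release active transforming growth factor beta from its latent complex. It measured -0.41, -0.064 and -0.13 in WT and 0.064, 0.18 and 0.15 in c-Maf KO, a difference of 0.33 (SE 0.103, 95% interval 0.079 to 0.58, adjusted p = 0.289 by limma). The second Itgav probe, at 0.29, also kept the genotypes apart. Of its partners, Itgb5, which serves uptake of apoptotic cells, had a difference of 0.20 (95% interval -0.049 to 0.45). Itgb3, the partner that forms the vitronectin receptor of osteoclasts and the fibrinogen receptor of platelets, had one of -0.28 (95% interval -0.59 to 0.026). Through its brightest probe Itgb3 was low in c-Maf KO replicates 1 and 3, at -0.39 and -0.44, while c-Maf KO replicate 2, at 0.012, lay among the WT samples (-0.012 to 0.029). A dimmer Itgb3 probe gave a difference of -0.088. There c-Maf KO replicate 1, at 0.034, lay within the WT range (-0.14 to 0.13).

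Itga5, the fibronectin receptor subunit, had a difference of 0.080 (95% interval -0.11 to 0.27), and Itgb1, the beta subunit that it shares with most matrix-binding alpha subunits, had one of 0.018 (95% interval -0.15 to 0.19). Both Itgb1 probes gave values within 0.2 of 0. Itga2b, the platelet subunit that pairs with Itgb3, had a difference of 0.19 that rested on c-Maf KO replicate 2, at 0.88 against -0.23 and 0.0095 in the others. Without that sample it was -0.15. The mean of the 8 measured of 10 megakaryocyte and platelet markers was also highest in c-Maf KO replicate 2, at 0.26 against -0.48 to 0.057 in the other 5 samples. Pf4, the brightest of these markers, had its lowest value in that sample, at -0.46. Vwf stood at 0.054 there, below WT replicate 2 at 0.13. Marker means of other cell types were highest in that sample too, as given for Itgb7. The part of megakaryocytes and platelets in the Itga2b value was not tested.

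The leukocyte integrins that pair with Itgb2 overlapped between genotypes in all 5 genes. Itgal, the lymphocyte and monocyte receptor for Icam1, had a difference of 0.014 (95% interval -0.20 to 0.23). Itgax, a complement receptor subunit used as a marker of dendritic cells, had one of -0.045 (95% interval -0.23 to 0.14). Itgb2 itself had one of 0.080 (95% interval -0.15 to 0.31). These 3 intervals did not reach the differences of Tspan33 or Itga9.

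Itgam, which with Itgb2 forms complement receptor Mac-1, measured -0.019, 0.090 and 0.043 in WT and -0.31, 0.019 and -0.15 in c-Maf KO. The difference was -0.19 (95% interval -0.42 to 0.047, adjusted p = 0.476 by limma). Its other probes gave -0.26, without overlap, and -0.0073, so 3 probes of Itgam disagreed on whether the genotypes separate. Itgad, an alpha subunit of splenic red pulp macrophages, spread widely within both genotypes, with 0.79, -0.13 and 0.41 in WT and -0.030, 0.030 and -0.59 in c-Maf KO. Its difference was -0.55 (95% interval -1.23 to 0.12, adjusted p = 0.466 by limma).

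Of the widely expressed surface tetraspanins, Cd9 was nearest to a separation. Cd9, which holds macrophage fusion in check together with Cd81, measured -0.15, 0.012 and -0.14 in WT and 0.24, 0.22 and -0.012 in c-Maf KO. c-Maf KO replicate 3 lay just below WT replicate 2, and the difference was 0.24 (SE 0.0924, 95% interval 0.014 to 0.47, adjusted p = 0.369 by limma). Cd81 had a difference of 0.17 (95% interval -0.045 to 0.39) with c-Maf KO replicate 3 highest at 0.29. Cd151, the tetraspanin that binds laminin receptors most tightly, had one of -0.00043 (95% interval -0.19 to 0.19). Tspan4, known from the migrasomes that trail behind moving cells, had one of -0.024 (95% interval -0.25 to 0.21).

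The lysosomal tetraspanin Cd63, a common marker of exosomes, had a difference of -0.031 (95% interval -0.23 to 0.17). Tspan3, known from leukaemic stem cells, had one of -0.11 (95% interval -0.34 to 0.11). The intervals of Tspan7 (0.041), Tspan13 (0.020), Tspan31 (-0.015) and Tspan9 (0.32) also included 0, and Tspan9 was above background on 1 WT and 1 c-Maf KO array. The 11 members below the detection rule were Itga2, Itga3, Itga8, Itgae, Itgb6, Itgb8, Tspan1, Tspan2, Tspan8, Tspan11 and Tspan18. Through the probe of highest signal, Tspan8 was well above background on 1 array and the other 10 on none, and a dimmer Tspan18 probe was on 1, so no difference is given for them. Among the kept members, 38 were well above background on all 5 arrays.

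Proteins that integrins and tetraspanins work with were read from lists chosen by function. Of the 40 genes of integrin activation and the adhesion complex, 39 were measured and none was called, at a median difference of 0.029. Of these, 10 (25.6%) were higher and 5 (12.8%) lower without overlap between genotypes, against 11.1% and 8.86% of all genes. The adaptors of fibroblast focal adhesions had the largest of these differences, with Tgfb1i1 (Hic-5) at 0.88, the kindlin Fermt2 at 0.79 and Bcar1 (p130Cas) at 0.78. WT replicate 1 was again the highest WT sample in all 3, at -0.11, -0.084 and -0.013. Parvg, the parvin of blood cells, followed at 0.71 (WT -0.33, -0.078 and -0.39, c-Maf KO 0.078, 0.56 and 0.70). Fermt3, the kindlin of blood cells that activates Itgb2 pairs, had a difference of -0.023 (95% interval -0.16 to 0.12). Talin, encoded by Tln1, measured -0.22 (95% interval -0.35 to -0.079, adjusted p = 0.242 by limma), lower in each c-Maf KO sample.

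Integrin ligands had a median difference of 0.77 over the 34 measured of 39 genes, against 0.016 over the members. Of these, 19 (55.9%) were higher and 1 (2.94%) was lower without overlap, against 11.1% and 8.86% of all genes. Tnc, among the 19, was kept through the c-Maf KO arrays alone, so the share leans in part on the detection rule. Collagens and other stromal markers form part of this list, and 7 of its measured genes are also on the stromal list, whose values stand above. Ligands outside the stromal list, such as Thbs1, Lamb1, Col4a1, Ctgf and Tnc, also had WT replicate 1 highest and WT replicate 2 lowest. Cdh1 and F11r, also higher without overlap, did not have this order. The part of stromal cells in the ligand values was not tested. The only called gene was F11r (Jam-A), a junctional adhesion molecule and counter-receptor of Itgal (chromosome 1, 173393848 to 173393907). F11r measured -0.59, -0.58 and -0.80 in WT and 0.70, 0.84 and 0.58 in c-Maf KO. It rose by 1.37 (SE 0.097, adjusted p = 0.0268 by limma), and was called without WT replicate 1 but not when any other replicate was left out. Jam3, a counter-receptor of Itgam, measured -0.40, -0.56 and -0.63 in WT and 0.52, 0.40 and 0.76 in c-Maf KO, at 1.09 (adjusted p = 0.0771 by limma).

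Among ligands of Itga9, Tnc, Spp1 and Svep1 were measured higher in every c-Maf KO sample than in any WT sample. Tnc (tenascin C) was above background on the c-Maf KO arrays alone and at least 2.53-fold higher there (fitted difference 1.47, adjusted p = 0.227 by limma). Kept through its brighter group alone, Tnc had to differ, and no call is read from it. Spp1 (osteopontin) measured -0.28, -0.54 and -0.63 in WT and 0.47, 0.28 and 0.53 in c-Maf KO, at 0.91 (adjusted p = 0.108 by limma). Svep1 measured -0.032, -0.83 and -0.22 in WT and 0.080, 0.032 and 0.85 in c-Maf KO, at 0.68 (95% interval -0.043 to 1.41). Vcam1 (0.032), Emilin1 (-0.0052) and Fn1 (0.0062), which Itga9 or its relatives also bind, had intervals that included 0. Ctgf, a matrix protein that binds Itgav and Itgam pairs, measured 1.1 (adjusted p = 0.148 by limma).

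Partners of tetraspanins gave 18 measured of 21 genes, none called, with a median of 0.019. Without overlap were 3 genes each way, or 16.7%, against 11.1% higher and 8.86% lower of all genes. Ptgfrn, which binds Cd9 and Cd81 directly, measured -0.26, -0.17 and -0.34 in WT and 0.28, 0.17 and 0.41 in c-Maf KO, at 0.54 (adjusted p = 0.136 by limma). Its relative Igsf8, a partner of the same pair, measured -0.084 (95% interval -0.23 to 0.059). Hbegf, the growth factor whose precursor sits beside Cd9, had a difference of 0.46, and the membrane protease Mmp14, a partner of Cd151, one of 0.65. Ifitm1, a partner of Cd81 on lymphocytes, had one of -0.74.

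Promoters of the members, whether or not they separated the genotypes, were searched for the letters that Maf proteins bind. Windows of 250 bases before the start of the gene came from RefSeq for GRCm38.p6, a different build from that of the probe positions, and 44 of the 53 members matched by symbol, with 56 windows. The half-site TGCTGA, or TCAGCA on the other strand, lay in 6 member windows (10.7%) against 16.1% of 32851 windows in all. It was found for Itga2b, Itga9, Itgb6, Tspan8, Tspan10 and Tspan32. The longer TGCTGAC, which contains the first and is GTCAGCA on the other strand, lay in 3.81% of all windows and, of the members, in that of Tspan32. The letters GAGGAAGT (ACTTCCTC on the other strand), which the macrophage factor PU.1 binds, lay in 8.93% of member windows and 2.44% of all windows. The members were Cd37, Cd82, Itga11, Itgav and Itgb6, so members that separated the genotypes and members that did not both held them.

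The windows of Tspan33, Itga9 and Tspan32 are printed since these 3 members passed the test with trend and robust estimation. Capitals mark the half-site TGCTGA or TCAGCA. Each runs 5′ to 3′ on the strand of its gene and ends at the base before the start.
Tspan33, chr6:29693964-29694213, plus strand: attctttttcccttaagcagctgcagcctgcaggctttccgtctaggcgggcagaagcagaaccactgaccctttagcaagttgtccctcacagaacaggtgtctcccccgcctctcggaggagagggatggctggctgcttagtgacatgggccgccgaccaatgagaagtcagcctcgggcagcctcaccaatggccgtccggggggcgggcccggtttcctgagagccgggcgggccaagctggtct
Itga9, chr9:118711442-118711691, plus strand: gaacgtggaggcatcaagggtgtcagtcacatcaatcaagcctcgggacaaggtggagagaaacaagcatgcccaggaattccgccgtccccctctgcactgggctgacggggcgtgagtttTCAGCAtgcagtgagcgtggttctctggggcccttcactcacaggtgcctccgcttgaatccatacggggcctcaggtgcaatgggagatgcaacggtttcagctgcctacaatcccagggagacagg
Tspan32, chr7:143004796-143005045, plus strand: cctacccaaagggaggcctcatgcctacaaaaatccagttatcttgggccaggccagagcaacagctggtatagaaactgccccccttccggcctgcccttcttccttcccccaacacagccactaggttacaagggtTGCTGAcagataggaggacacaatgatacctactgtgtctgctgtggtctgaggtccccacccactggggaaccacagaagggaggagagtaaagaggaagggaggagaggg
The match in Itga9, which was lower in c-Maf KO, starts at -128 and that in Tspan32, which was higher, at -112. The window of Tspan33, lower in c-Maf KO, holds no such letters. A match of letters describes the window and shows no binding.

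Genes next to the 10 members without overlap were read as well. Of 20 neighbour positions, 15 held a measured gene, with differences from -0.72 to 0.80, and 10 were within 0.2. Tspan33 lies between Tnpo3 (-0.090) and Smo (-0.20), and Itga9 between Golga4 (-0.040) and Ctdspl (-0.10), so the genes beside the 2 lower members were closer to 0 than the members themselves. Cd81, the tetraspanin gene beside Tspan32, measured 0.17. The samples of 4 of the 15 did not overlap, as was so for 20% of all genes. Of these 4, Coro2b beside Itga11 had the opposite sign at -0.72. Zc3h15 and Fam171b, both beside Itgav, measured 0.20 and 0.80, and Ctdspl beside Itga9 had the sign of its neighbour.

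With each sample left out in turn, all 10 members without overlap kept the sign of their difference, which their lack of overlap fixes in advance. Only the size of the difference could move. Tspan33 ranged from -1.12 to -0.95, Itga9 from -1.04 to -0.82 and Tspan32 from 0.69 to 0.80. Itga7 ranged from 0.81 to 0.99 and Itga11 from 1.19 to 1.55. Tspan12 moved most, from 1.5 without WT replicate 2 to 2.53 without WT replicate 1. The number of all genes called was 100 without WT replicate 1 and 2 to 9 without any other sample. Itga11 passed the test without WT replicate 1 and in no other of these fits. Tspan12 passed there too, but it was kept through the c-Maf KO arrays alone and is not counted.

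**Figure D4:**
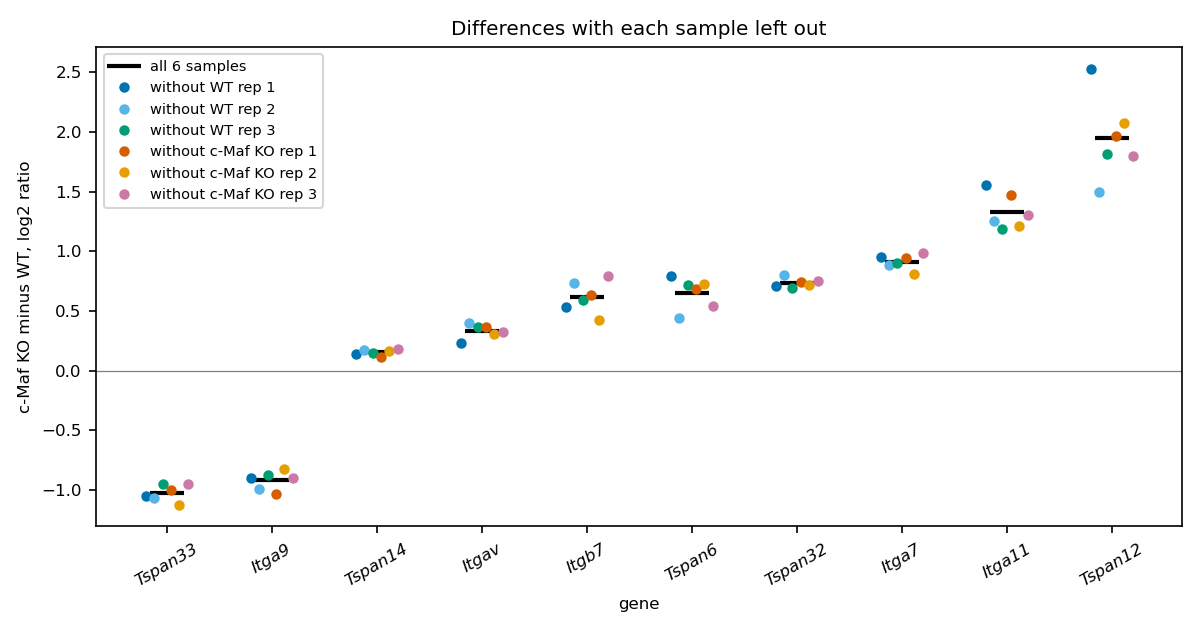
Difference c-Maf KO minus WT in log2 ratio on the vertical axis for the 10 members without overlap, with all 6 samples (black line) and with each sample left out (coloured points). The points of Tspan33, Itga9, Tspan32 and Itga7 stay close to the line, and those of Tspan12 run from 1.5 to 2.53.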

How the data were processed

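The authors' deposited value table holds a linear ratio per probe and sample, relative to the probe's median over the 6 samples. Its scale and scaling were worked out from the values: log2 of the ratios followed the scanner signal over the array's 75th percentile (r = 1 on each of 5 arrays). Whether low values were floored is not stated in the sources used here. The authors deposited intensity values for 5 arrays, which the submitters' processing notes credit to Agilent Feature Extraction (10.7.3.1), with detrending on and background correction off, per the file headers.

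Here log2 of the ratios was tested in R 4.3.3 with limma 3.58.1 (lmFit, eBayes, Benjamini-Hochberg adjusted p under 0.05) on 3 WT against 3 c-Maf KO samples. Control and outlier spots were left out, and each gene was represented by its brightest probe, kept if well above background on at least 2 of 5 arrays. The fit was tested on simulated data. Bounds ("at least") set the bright group's mean against the dim group's, taking per array the higher of its own signal and the lowest signal well above background. Named members were Maf, those called in any fit of 6 samples, those without overlap, and a set of myeloid members; of partner lists, up to 4 genes by size, and of markers the 2 brightest. Other genes, such as Fermt3, Tln1, Adam10 and the ligands of Itga9, were chosen after their values were seen. Members and lists were chosen with earlier results of these data known. Replicate numbers did not pair the samples (correlations of deviations -0.029, -0.061 and 0.039).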

Additional observations from a re-analysis of the deposited data

How the results depend on the processing

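The 16 alternatives changed how many genes were called far more than the differences. Among all genes, 7 calls (4 higher and 3 lower) became 21 with normexp (13 higher), 3 with quantile normalization (0 higher, 3 lower), 2 without a filter on dim probes, 22 with probes above background on all 5 arrays and 141 with trend and robust estimation. They were 3 with the replicate block, 2 with WT replicates 1 and 3 averaged because their files share a tag, and 2 to 100 with 1 sample left out. Member calls were 0 in the main analysis and with the replicate block, 2 with probes above background on all 5 arrays, 3 with trend and robust estimation and 0 to 2 with 1 sample left out (Itga11, and Tspan12, which was kept through the c-Maf KO arrays alone). The count of members without overlap, 10, ran from 12 to 18 with 1 sample left out, the highest without c-Maf KO replicate 2. Genotypes overlap less readily when fewer samples are compared. The share of all genes in those fits is not given here, so no result about the members is read from the rise. A block for slide was not run, since the 5 arrays of known position lay on 1 slide.

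The 10 members without overlap, Tspan33, Itga9, Tspan32, Itga7, Itga11, Tspan12, Tspan6, Itgb7, Itgav and Tspan14, kept their sign under each alternative that measured them. With 1 sample left out, or with the same ratios in another fit, the lack of overlap fixed this in advance. Of the 42 members, 16 changed sign at least once, none with a difference beyond 0.32. With the mean of probes, Cd151 was 0.036, Cd82 0.051, Itga1 0.0029 and Tspan17 0.024. With normexp, Itga2b was -0.015 and Tspan9 -0.12. Itgal was -0.022 on the 5 arrays, -0.014 with normexp and -0.025 with WT replicates averaged. Itgb1 was -0.0017 on the 5 arrays. Tspan13 was -0.048 on the 5 arrays, -0.024 with normexp, -0.014 with quantile normalization and -0.00088 with WT replicates averaged. With 1 sample left out, these ranges crossed 0: Cd151 -0.043 to 0.058, Cd53 -0.070 to 0.012, Cd63 -0.096 to 0.036, Cd68 -0.13 to 0.0095, Cd82 -0.10 to 0.0021, Itga2b -0.15 to 0.41, Itga6 -0.081 to 0.032, Itgal -0.051 to 0.091 and Itgb1 -0.019 to 0.072. The others were Itgb4 -0.21 to 0.029, Tspan13 -0.046 to 0.14, Tspan17 -0.043 to 0.013, Tspan31 -0.090 to 0.053, Tspan4 -0.098 to 0.032 and Tspan7 -0.089 to 0.14. F11r lost its call, by limma, on the 5 arrays (adjusted p = 0.126), with quantile normalization (0.0566), without a filter (0.137), with the replicate block (0.123) and with WT replicates averaged (0.0787), at differences of 1.31 to 1.37. The causes were not tested.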
